A study of Mus musculus with 12 samples.

Results

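The Notch pathway genes described here are 10 of the 24480 genes in the count tables of the *Sox2* and *Nr2f1* lines. They were taken from a list of symbols and comprise 2 receptors (*Notch1*, *Notch2*), 3 ligands (*Dll1*, *Dll3*, *Jag1*) and 5 effectors (*Hes1*, *Hes5*, *Hes6*, *Hey1*, *Hey2*). All 10 were found in both tables and passed the filter on low counts in both lines. RNA-seq was performed on the dorsal lateral geniculate nucleus (dLGN), the visual nucleus of the thalamus, dissected from mice at P0. There were 12 libraries in 4 groups of 3, and each library was a pool of dLGNs from 3 animals.

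Mutants of the *Sox2* line carried Sox2flox/flox together with Ror-alphaCre, and their controls were Sox2flox/flox or Sox2flox/+ animals that had no Cre. Mutants of the *Nr2f1* line carried Nr2f1 flox/flox and the same Cre. The labels of the *Nr2f1* controls give Nr2f1 flox/flox and name the Cre allele and also its absence, while the study's methods allow Nr2f1 flox/flox or flox/+ for them and describe all controls as littermates without Cre. Cre is expressed from the 3′ untranslated region of *Rora*, a gene of sensory thalamic neurons, and deletes in postmitotic cells. Since only mutants carried it, the deletion and the altered *Rora* allele cannot be told apart. The pools also held glia, vessels and other cells of the dLGN, and in bulk RNA fewer cells of a type and less RNA per cell cannot be told apart.

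Total counts per library were between 39293465 and 50095344. Their medians were 43129793 in *Sox2* controls, 43335724 in *Sox2* mutants, 46844439 in *Nr2f1* controls and 45360140 in *Nr2f1* mutants. Levels are given in CPM, that is counts divided by the TMM-normalized library size, in the order control libraries 1, 2 and 3 and mutant libraries 1, 3 and 4 for the *Sox2* line, and control libraries B, D and E and mutant libraries A, B and C for the *Nr2f1* line. Mutants were compared with controls of their own line by the quasi-likelihood F-test of edgeR, and a gene was called when its Benjamini-Hochberg adjusted p (FDR) over all tested genes was below 0.01. Over all tested genes, the SE (standard error) of the log2 fold change had a median of 0.11 for *Sox2* mutants and 0.09 for *Nr2f1* mutants. With 3 libraries against 3, an exact two-sided permutation test of a single gene cannot go below p = 0.1.

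The deleted genes were examined first. *Sox2* had 361, 363 and 382 CPM in controls of its line and 116, 150.4 and 152 CPM in mutants. *Nr2f1* had 311, 370.4 and 380.1 CPM in controls of its line and 105, 150.6 and 101 CPM in mutants. Each mutant library therefore lay below each control library, with log2 fold changes of −1.40 (SE 0.10, FDR 4.83e-05) for *Sox2* and −1.57 (SE 0.14, FDR 0.000348) for *Nr2f1* by edgeR. *Sox2* also fell in *Nr2f1* mutants (351, 343 and 374 CPM in controls, 238, 279 and 212 in mutants; log2 −0.55, edgeR FDR 0.00635), a call kept in 8 of 14 alternative fits and in 1 of the 6 that left out a library, with FDR up to 0.0791. In the *Sox2* line *Nr2f1* had 308, 345 and 344 CPM in controls and 227, 313 and 221 CPM in mutants, groups that overlapped (log2 −0.39, edgeR FDR 0.0559). Of 15 alternative fits 1 called it, that without mutant library 3 (log2 −0.57, FDR 0.00338). Both genes overlap a non-coding gene of the table, *Sox2ot* and *A830082K12Rik*, and the use of strand in the counting is not given. The dissected tissue expressed thalamic markers, of which *Tcf7l2* was the most abundant (848, 810 and 632 CPM in the *Sox2* controls), whereas *Tbr1*, a marker of pallial neurons, had 5.13, 3.69 and 2.69 CPM in the same libraries.

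Notch receptors on a cell's surface are bound by Delta-like and Jagged ligands on a neighbouring cell, after which proteolysis frees the intracellular part of the receptor. This part enters the nucleus, joins RBPJ and Mastermind-like proteins, and switches on *Hes* and *Hey* genes, whose products repress proneural genes. In the developing brain the pathway is known for keeping radial glia and progenitors undifferentiated and for promoting glial fates, while it is also active in blood vessels and meninges.

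Divided by transcript length, the members ranged widely in level. In *Sox2* controls the highest was *Hes6* with a mean of 35.9 CPM per kb, a Hes family member known to antagonise *Hes1* and to favour neuronal differentiation, followed by *Hes5* with 27.8 CPM per kb. *Notch1* had 15.03 CPM per kb, *Hey1* 9.42 and *Hes1* 7.52. The ligand genes were lower, with 5.28 CPM per kb for *Dll1*, 4.94 for *Dll3* and 2.36 for *Jag1*, and *Hey2* (4.77) and *Notch2* (4.21) lay among them. The libraries of *Hey1* and *Hes1*, of *Dll1* and *Dll3*, of *Dll3* and *Hey2*, and of *Hey2* and *Notch2* overlapped, and these neighbours did not differ beyond their spread. In *Nr2f1* controls the order was the same, from 32.6 CPM per kb for *Hes6* to 1.99 for *Jag1*, and there the libraries of *Hes1* and *Dll1* and those of *Dll3* and *Hey2* overlapped.

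In *Sox2* mutants, a receptor and an effector gene rose. *Notch1* was higher by 1.39-fold and *Hey1* by 1.63-fold, and *Hes5* missed the threshold narrowly. Thus 2 of the 10 members were called, both higher, whereas 3.90% of the 15602 tested genes were called higher, 4.19% lower and 8.08% in either direction. The 2 groups were fully separated for 7 members that were higher (*Notch1*, *Notch2*, *Dll1*, *Hes5*, *Hes6*, *Hey1* and *Hey2*) and for 1 that was lower (*Dll3*). Such a separation was found over all tested genes in 19.0% with higher and in 18.9% with lower mutant levels. At an unadjusted p below 0.05 there were 6 members, beside 35.0% of all tested genes. The median log2 fold change was 0.40 over the 10 members, of which 8 were above 0, and 0.0005 over all tested genes.

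**Figure D1:**
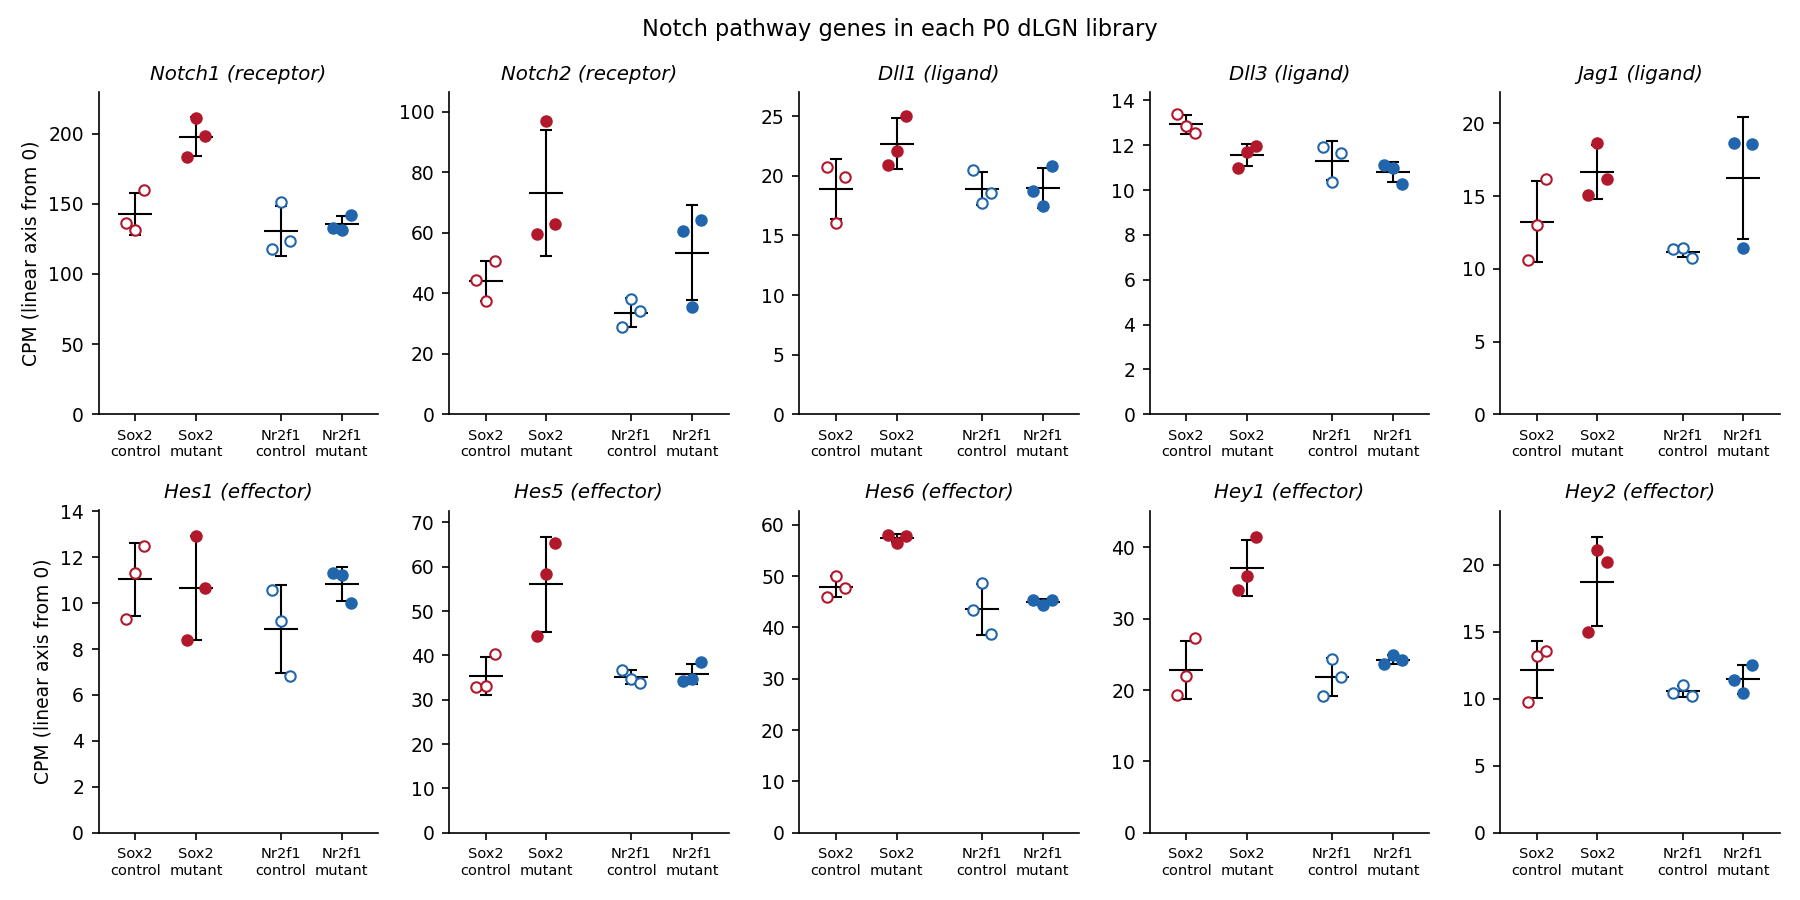
CPM of each of the 10 Notch pathway genes in the 12 libraries (points), on linear axes from 0, with controls open and mutants filled, *Sox2* line in red and *Nr2f1* line in blue; the horizontal line is the mean of 3 libraries and the bar their SD. In the *Sox2* line all 3 mutant libraries of *Notch1* (184 to 211 CPM) and *Hey1* (34.0 to 41.5 CPM) lie above the controls, and in the *Nr2f1* line controls and mutants overlap for all 10 genes.

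Among receptors, *Notch1* (chromosome 2, 26457902 to 26503822 in GRCm38.p6) had 137, 131 and 160 CPM in *Sox2* controls and 184, 211 and 198 CPM in mutants. Mutant library 3 was the highest, and the lowest mutant library still exceeded control library 3. This is a log2 fold change of 0.47 with an SE of 0.09 (edgeR FDR 0.00614). *Notch2* (chromosome 3, 98013538 to 98150367) had 44.6, 37.4 and 50.6 CPM in controls and 59.5, 97.1 and 63.1 CPM in mutants. Its groups did not overlap, but mutant library 3 stood far above the other mutants, and the change did not pass the test (log2 0.73, SE 0.18, edgeR FDR 0.0204). Without mutant library 3, it was 0.47 with an FDR of 0.0290.

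None of the ligand genes was called in *Sox2* mutants. *Dll1*, a Delta-like ligand of progenitors and newborn neurons, had 20.8, 16.1 and 19.9 CPM in controls and 20.9, 22.1 and 25.1 CPM in mutants, so that the groups were separated by a narrow margin (log2 0.26, edgeR FDR 0.144). *Dll3*, a divergent Delta-like protein that acts mainly as an inhibitor within the cell, had 13.4, 12.9 and 12.6 CPM in controls and 11.01, 11.7 and 11.95 CPM in mutants (log2 −0.16, edgeR FDR 0.255). It was the only member for which all mutant libraries lay below all controls in the *Sox2* line. For *Jag1*, a Jagged ligand expressed by progenitors and by vessels, the groups overlapped, with 10.6, 13.0 and 16.1 CPM in controls and 15.1, 18.7 and 16.2 CPM in mutants (log2 0.33, edgeR FDR 0.155).

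The effectors are transcriptional repressors of the basic helix-loop-helix type. *Hey1* (chromosome 3, 8663359 to 8667038) had 19.3, 21.9 and 27.3 CPM in *Sox2* controls and 34.0, 36.0 and 41.5 CPM in mutants, which corresponds to 0.70 on the log2 scale (SE 0.13, edgeR FDR 0.00581). *Hes5* (chromosome 4, 154960626 to 154962372), a principal Notch target in neural progenitors, had 32.8, 33.0 and 40.4 CPM in controls and 44.4, 58.4 and 65.4 CPM in mutants. All mutant libraries of *Hes5* were above all controls, with a log2 difference of 0.66 (SE 0.14), but its FDR of 0.01004 in edgeR was just above the threshold. *Hey2* (chromosome 10, 30832359 to 30842783) had 9.72, 13.2 and 13.6 CPM in controls and 14.95, 21.1 and 20.2 CPM in mutants (log2 0.63, edgeR FDR 0.0255).

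*Hes6* differed by less, with 46.0, 50.1 and 47.6 CPM in *Sox2* controls and 58.0, 56.5 and 57.8 CPM in mutants (log2 0.26, SE 0.07, edgeR FDR 0.0225), and its replicates were close to each other. *Hes1*, the other main effector of Notch in neural progenitors, had 9.32, 11.3 and 12.5 CPM in controls and 8.38, 12.9 and 10.6 CPM in mutants, and these groups overlapped (log2 −0.05, SE 0.17, edgeR FDR 0.863). Without control library 1, control library 2, mutant library 3 or mutant library 4, neither *Notch1* (log2 0.44, 0.42, 0.42 and 0.47, FDR 0.0364, 0.0354, 0.0222 and 0.0310) nor *Hey1* (log2 0.59, 0.67, 0.73 and 0.62, FDR 0.0251, 0.0309, 0.0136 and 0.0312) was called. In these fits with fewer libraries 554, 494, 906 and 495 genes were called in all, against 1261 with all 6 libraries. Without control library 3 the number rose to 2161, and without mutant library 1 it was 882. In both of those fits *Notch1*, *Hes5* and *Hey1* were called. *Hey1* was also not called with the male-specific genes as covariate (FDR 0.0101). *Hes5* was called in 11 of its 15 alternative fits, among them the main fit at FDR below 0.05, where its call was fixed in advance.

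Promoter windows of RefSeq (GRCm38.p6), from 250 bases before to 50 after a start, were available for 8 of the 10 members and 10 of their starts, and not for *Hes1* and *Hey1*. They were searched on both strands for TGGGAA, the core bound by RBPJ, and for CACNAG, the N box bound by Hes proteins, neither of which contains the other. TGGGAA was found in *Hes5* and *Hey2*, 2 times in each, and in no other member window, while 25.6% of all 32851 promoter windows hold it at least once and 3.79% hold it 2 or more times. Among effectors only *Hes5*, *Hes6* and *Hey2* had a window. In *Sox2* mutants *Hes5* and *Hey2* had larger log2 differences than *Hes6*, and none of them was called. *Hey1*, the effector that was called, had no window, so matches cannot be set beside the size of the change. The stretches around the TGGGAA matches are shown. They are written 5′ to 3′ on the strand of the gene, with the match in capitals, TTCCCA being TGGGAA on the opposite strand.
Hes5, first match base at −226, chr4:154960685-154960714 (+): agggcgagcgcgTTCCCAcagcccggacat
Hes5, first match base at −82, chr4:154960829-154960858 (+): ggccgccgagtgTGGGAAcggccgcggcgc
Hey2, first match base at −207, chr10:30842973-30843002 (−): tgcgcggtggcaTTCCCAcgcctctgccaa
Hey2, first match base at −3, chr10:30842769-30842798 (−): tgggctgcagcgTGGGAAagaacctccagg
Positions are relative to the start. The annotated span of *Hes5* begins before its window, so both *Hes5* matches lie inside that gene, and a match is a description of letters only. CACNAG was found in the windows of *Notch1* (3 times), *Notch2* (1), *Dll1* (1) and *Hes6* (2), and in 42.5% of all windows.

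In *Nr2f1* mutants, 0 of the 10 members were called, while 2.54% of the 15600 tested genes were called, 1.22% higher and 1.32% lower. Over all tested genes the number called was 396. It became 868 without mutant library B, 133 without mutant library A and 48 with the male-specific genes as covariate. Controls and mutants overlapped for all 10 members, whereas over all tested genes the groups did not overlap in 14.4% with higher and in 14.3% with lower mutant levels. At an unadjusted p below 0.05 there were 2 members, *Notch2* and *Jag1*, beside 24.6% of all genes, and both DESeq2 and the likelihood ratio test of edgeR also called 0 members. The median log2 fold change was 0.08 over the members and 0.01 over all tested genes.

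*Notch1* had 118, 151 and 123 CPM in *Nr2f1* controls and 133, 131 and 142 CPM in mutants (log2 0.05, SE 0.09, edgeR FDR 0.768). The effectors *Hes5* (36.8, 34.7 and 33.7 CPM in controls, 34.2, 34.8 and 38.4 in mutants) and *Hey1* (19.2, 24.4 and 21.9 CPM in controls, 23.7, 24.9 and 24.2 in mutants) likewise overlapped, with log2 differences of 0.03 and 0.15. *Hey2* (10.4, 10.998 and 10.2 CPM in controls, 11.4, 10.4 and 12.5 in mutants) and *Hes6* (43.4, 48.6 and 38.7 CPM in controls, 45.3, 44.3 and 45.3 in mutants) gave 0.12 and 0.05, and the ligand genes *Dll1* and *Dll3* gave 0.01 and −0.07. *Hes1* had 10.6, 9.21 and 6.81 CPM in controls and 11.3, 11.2 and 10.002 CPM in mutants (log2 0.29, edgeR FDR 0.276).

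*Notch2* and *Jag1* showed a division among the *Nr2f1* mutant libraries. *Notch2* had 28.8, 38.0 and 34.2 CPM in controls and 60.8, 35.3 and 64.2 CPM in mutants (log2 0.67, SE 0.20, edgeR FDR 0.0729), and *Jag1* had 11.4, 11.4 and 10.7 CPM in controls and 18.7, 11.4 and 18.6 CPM in mutants (log2 0.54, SE 0.17, edgeR FDR 0.0883). For both genes mutant libraries A and C were high, and mutant library B lay at the level of the controls. Without mutant library B both were called, *Notch2* with a log2 fold change of 0.89 (edgeR FDR 0.000749) and *Jag1* with 0.74 (edgeR FDR 0.00113). In each of the other 13 alternative fits neither was called.

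The meningeal fibroblast list was divided in the same way. Its 7 genes, of which *Igf2* was the most abundant, summed to 686, 1004 and 1082 CPM in *Nr2f1* controls and to 1938, 1004 and 2346 CPM in mutants A, B and C. In the *Sox2* line the sums were 983, 963 and 1878 CPM in controls and 1448, 3154 and 1860 CPM in mutants, with the highest value in mutant library 3, where *Notch2* was also highest. By edgeR none of the 7 genes was called in either line, although 6 had an unadjusted p below 0.05 in *Nr2f1* mutants and 4 in *Sox2* mutants, where 24.6% and 35.0% of all tested genes did. DESeq2 called 0 in both lines, and the likelihood ratio test called 3 in *Nr2f1* mutants and 0 in *Sox2* mutants. No gene of the list was at 0 in any library, and the part of such cells in the values of *Notch2* and *Jag1* was not tested. As a ratio chosen after the values were seen, *Notch2* had 42.0, 37.9 and 31.6 CPM per 1000 CPM of this list in *Nr2f1* controls and 31.4, 35.2 and 27.4 in mutants, and *Jag1* had 16.6, 11.4 and 9.91 in controls and 9.64, 11.4 and 7.93 in mutants. On this scale controls and mutants overlapped for both genes, as they already did in CPM, so this overlap adds nothing. In the *Sox2* line, where *Notch2* was separated in CPM, its ratios overlapped, with 45.3, 38.8 and 26.9 in controls and 41.1, 30.8 and 33.9 in mutants.

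Markers of vessels gave a similar division, since the endothelial list, led by *Cldn5*, summed to 297, 361 and 312 CPM in *Nr2f1* controls and 466, 356 and 502 CPM in mutants, with 0 of 8 genes called by edgeR, 3 by DESeq2 and 3 by the likelihood ratio test, and all 8 at an unadjusted p below 0.05. In the *Sox2* line it summed to 315, 333 and 484 CPM in controls and 437, 555 and 505 CPM in mutants, with 0 called by each of the 3 tests and 5 at an unadjusted p below 0.05 in edgeR. Of the 7 pericyte and mural cell genes 0 were called by edgeR or DESeq2 in either line, 1 by the likelihood ratio test in *Nr2f1* mutants, and 2 in *Nr2f1* and 4 in *Sox2* mutants had an unadjusted p below 0.05 in edgeR. Their sums were 284, 308 and 347 CPM in *Nr2f1* controls and 433, 321 and 464 CPM in mutants. In the choroid plexus and ependyma list (4 genes) 0 were called by any of the 3 tests, with 2 at an unadjusted p below 0.05 in *Sox2* and 0 in *Nr2f1* mutants. In the habenula list (2 genes) edgeR called 0 in both lines, with 1 at an unadjusted p below 0.05 in *Nr2f1* mutants, a gene that DESeq2 and the likelihood ratio test called. The division was not confined to meninges and vessels. The 10 genes of GABAergic neurons, of which *Gad1* was the most abundant, summed to 175, 183 and 165 CPM in *Nr2f1* controls and to 249, 172 and 323 CPM in mutants A, B and C. The part of all these cells was not tested. Over all tested genes 35.0% in *Sox2* mutants and 24.6% in *Nr2f1* mutants had an unadjusted p below 0.05 in edgeR.

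**Figure D2:**
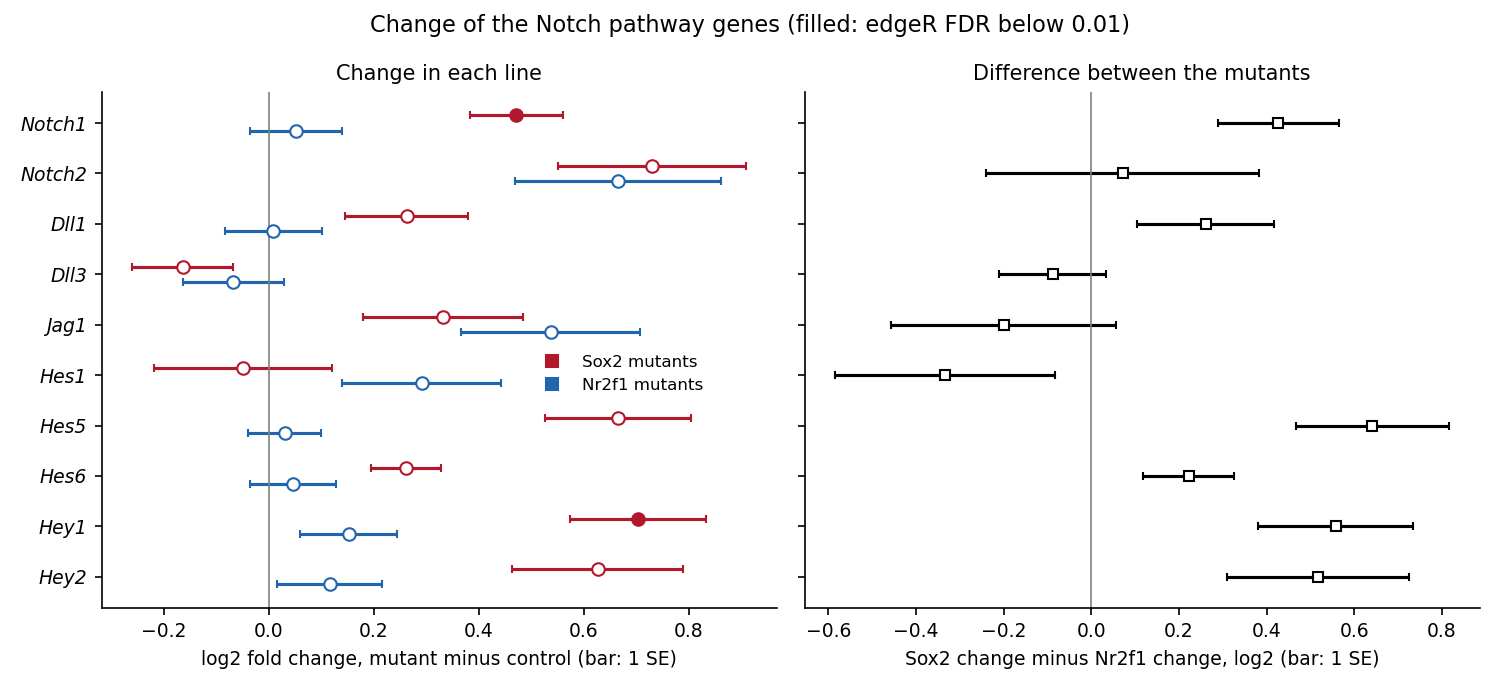
Left, log2 fold change of the 10 Notch pathway genes, mutant minus control, in the *Sox2* (red) and *Nr2f1* (blue) lines, with filled points for edgeR FDR below 0.01; right, change in *Sox2* mutants minus change in *Nr2f1* mutants; bars are 1 SE and the grey line is 0. Filled points are *Notch1* (0.47) and *Hey1* (0.70) in *Sox2* mutants, and on the right no point is filled.

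An interaction term over all 12 libraries tested whether the change of a member depended on the line. None of the 10 members was called by edgeR, beside 1.44% of the 15989 genes tested. *Hes5* came closest, with a difference of 0.64 on the log2 scale (SE 0.17, FDR 0.0661), followed by *Hey1* with 0.56 (SE 0.18, FDR 0.114), *Notch1* with 0.43 (SE 0.14, FDR 0.122) and *Hey2* with 0.52 (SE 0.21, FDR 0.230). These 4 members had an unadjusted p below 0.05, as had 16.2% of all genes. DESeq2 called 1 member, *Hes5* (FDR 0.00795), the likelihood ratio test called 0, and edgeR called *Hes5* when *Sox2* mutant library 1 was left out (0.78, FDR 0.00744). For *Notch2* the difference was 0.07 (SE 0.31, FDR 0.949) and for *Jag1* −0.20 (SE 0.26, FDR 0.787). The calls of *Notch1* and *Hey1* in *Sox2* mutants are therefore not shown to differ from their values in *Nr2f1* mutants.

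Markers of radial glia and astrocytes, cells in which *Notch1*, *Hes5*, *Hey1* and *Hey2* are commonly expressed, were higher in *Sox2* mutants. Of 14 such genes 9 rose, with a median log2 fold change of 0.57, while DESeq2 and the likelihood ratio test each called 12 and all 14 had an unadjusted p below 0.05 in edgeR. Among them were *Gfap* (73.1, 77.0 and 67.1 CPM in controls, 148, 203 and 178 in mutants; log2 1.28, edgeR FDR 0.000108), the water channel gene *Aqp4* (log2 0.77, edgeR FDR 0.000209) and *Fabp7*, the most abundant (653, 684 and 866 CPM in controls, 1020.4 to 1227 in mutants; log2 0.60, edgeR FDR 0.00642). The list summed to 2850.4, 2954 and 3431 CPM in controls and to 4145, 4606 and 4783 CPM in mutants, and none of its genes was at 0. Of the 9 calls, those of *Gfap*, *Aqp4*, *Gja1* and *Fgfr3* were kept in all 6 fits that left out a library, that of *Aldoc* in 3, and those of *Fabp7*, *Aldh1l1*, *Ttyh1* and *Mlc1* in 2. In *Nr2f1* mutants 1 of the 14 rose, *Aqp4* (log2 0.38, edgeR FDR 0.00850), all 14 were above 0 with a median of 0.17, and the sums were 2517, 2509.7 and 2481 CPM in controls and 2699, 2792 and 2969.9 CPM in mutants. There DESeq2 and the likelihood ratio test each called 3, and 7 had an unadjusted p below 0.05 in edgeR. The call of *Aqp4* in this line was kept in 1 of the 6 fits that left out a library. For the difference between the mutants, edgeR and the likelihood ratio test called 0 of the 14 and DESeq2 called 1, while 10 had an unadjusted p below 0.05 in edgeR. Over all tested genes 3.90% were called higher in *Sox2* mutants and 1.22% in *Nr2f1* mutants. An unadjusted p below 0.05 in edgeR was found in 35.0% and 24.6% of them, and in 16.2% for the difference between the mutants.

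Relative to this list, a comparison also chosen after the values were seen, *Notch1*, *Hey1*, *Hes5* and *Hey2* of *Sox2* mutants overlapped with controls. *Notch1* had 47.9, 44.5 and 46.6 CPM per 1000 CPM of the list in controls and 44.3, 45.9 and 41.5 in mutants. The values of *Hey1* were 6.76, 7.42 and 7.95 in controls and 8.20, 7.81 and 8.67 in mutants. *Hes5* had 11.5, 11.2 and 11.8 in controls and 10.7, 12.7 and 13.7 in mutants, and *Hey2* had 3.41, 4.46 and 3.96 in controls and 3.61, 4.58 and 4.22 in mutants. In the *Nr2f1* line, the ratios of *Hes5* did not overlap, at 14.6, 13.8 and 13.6 in controls and 12.7, 12.4 and 12.9 in mutants. Its CPM overlapped (log2 0.03), and the sum of the list was higher in each mutant library than in each control library. In CPM, 14.3% of all tested genes were separated with lower mutant levels in this line, and that share was not computed for ratios. The ratios of *Notch1*, *Hey1* and *Hey2* overlapped in the *Nr2f1* line. The part of a different number of glial cells or of vessel cells in the changes of *Notch1* and *Hey1* was not tested. No ratio of these genes to the endothelial list was made, whose sums in the *Sox2* line were 315, 333 and 484 CPM in controls and 437, 555 and 505 CPM in mutants.

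**Figure D3:**
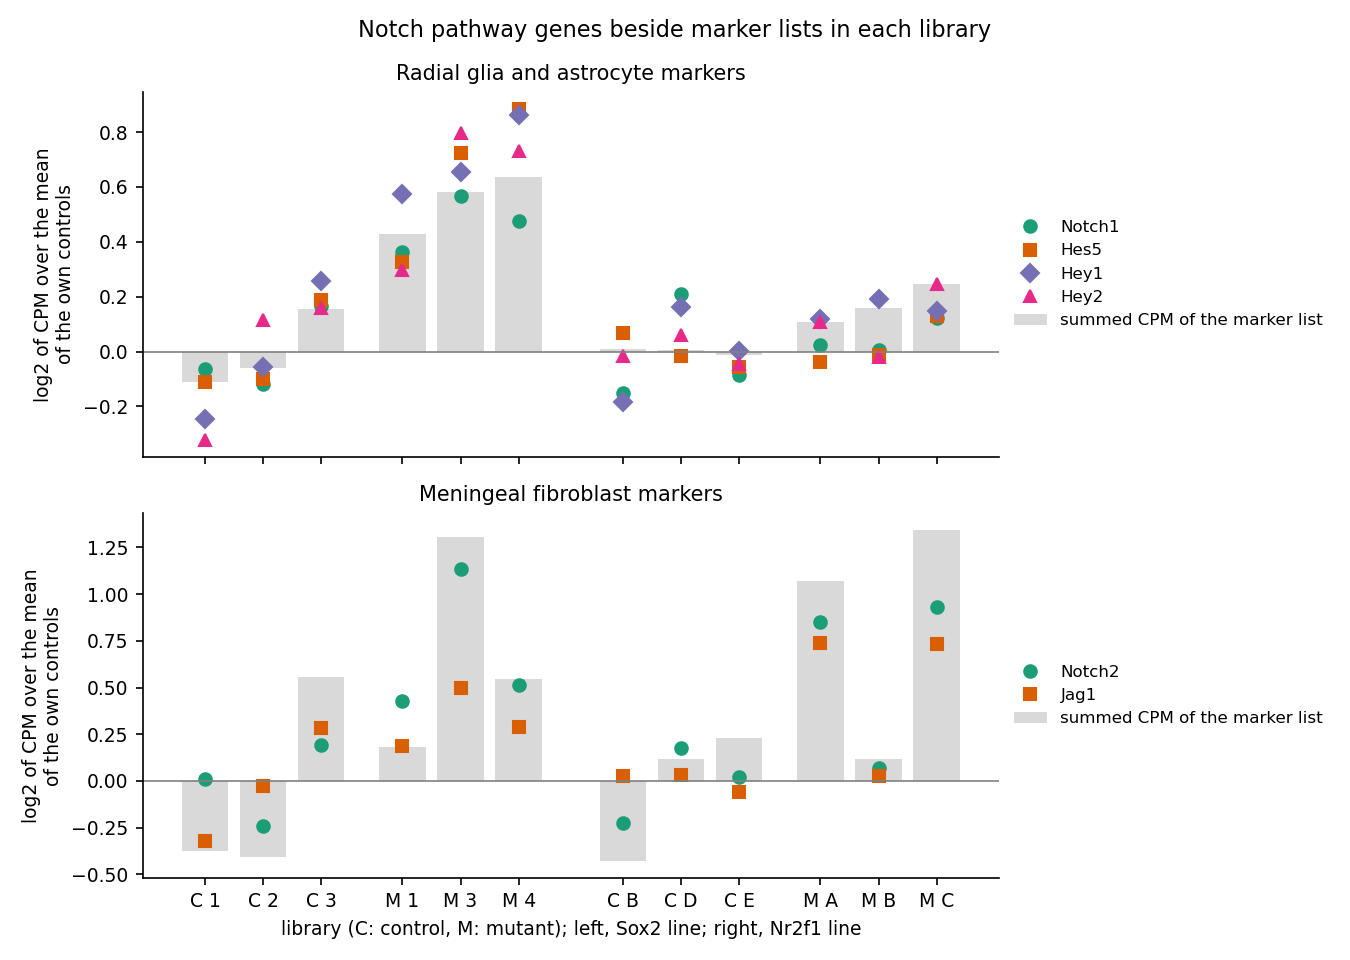
Log2 of the CPM of each library over the mean of the controls of its own line, for 4 Notch genes beside the summed radial glia and astrocyte markers (top) and for *Notch2* and *Jag1* beside the summed meningeal fibroblast markers (bottom); grey bars are marker sums, points are genes, C and M are control and mutant libraries. In the *Sox2* line genes and glial markers are high in all 3 mutant libraries, and in the *Nr2f1* line *Notch2*, *Jag1* and the meningeal markers are high in mutant libraries A and C and near 0 in B.

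Some markers of other cell types were also called in the *Sox2* line. In *Sox2* mutants 3.90% of all tested genes were called higher, 19.0% were separated with higher levels and 35.0% had an unadjusted p below 0.05 in edgeR. In *Nr2f1* mutants these shares were 1.22%, 14.4% and 24.6%. Microglial genes rose in 6 of 7 cases, with sums of 120, 123 and 131 CPM in controls and 243, 267 and 277 CPM in mutants, led by *Csf1r*, and the call of *Aif1* was kept in 1 of the 6 fits that left out a library. In *Nr2f1* mutants edgeR called 0 of the 7, with 4 at an unadjusted p below 0.05, and DESeq2 and the likelihood ratio test each called 2. Of the 10 genes of dividing cells edgeR called 0 in either line, with 7 at an unadjusted p below 0.05 in *Sox2* and 0 in *Nr2f1* mutants, and DESeq2 and the likelihood ratio test each called 2 in *Sox2* and 0 in *Nr2f1* mutants. In the *Sox2* line all 10 were above 0 and 6 did not overlap, with a median of 0.36 and sums of 276, 246 and 312 CPM in controls and 348, 332 and 385 CPM in mutants, most of all from *Mki67*. In the oligodendrocyte lineage *Mbp* was the only of 7 genes that edgeR called, and it rose in both lines (log2 0.80, edgeR FDR 0.00787, and 0.87, FDR 0.000185). Without *Sox2* control library 1 or 2 or mutant library 1 or 4 the call of *Mbp* in the *Sox2* line was lost (FDR 0.0120, 0.0294, 0.0189 and 0.0324). Among 10 genes of GABAergic neurons edgeR called *Otx2*, which rose in *Sox2* mutants (log2 0.48, edgeR FDR 0.00856), whereas DESeq2 called 7 and the likelihood ratio test 5 there. The call of *Otx2* was lost in 4 of the 6 fits that left out a library (FDR 0.0213 to 0.0428). In the *Sox2* line all 10 were above 0 and had an unadjusted p below 0.05 in edgeR, and 9 did not overlap, with a median of 0.60 and sums of 167, 196 and 142 CPM in controls and 279, 225 and 247 CPM in mutants. In *Nr2f1* mutants all 10 were also above 0, with a median of 0.51, 1 that did not overlap and 7 at an unadjusted p below 0.05, and edgeR called 0 while DESeq2 and the likelihood ratio test each called 1.

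Among 9 genes of thalamic glutamatergic neurons, *Gbx2* rose and *Slc17a6*, *Lhx9*, *Rora* and *Prox1* fell in *Sox2* mutants, and *Prox1*, *Lhx2* and *Cacna1g* rose in *Nr2f1* mutants. Of all tested genes 8.08% were called in *Sox2* mutants and 2.54% in *Nr2f1* mutants, and 35.0% and 24.6% had an unadjusted p below 0.05 in edgeR. Among the 6 fits of a line that left out a library, the call of *Lhx9* was kept in 1, those of *Prox1*, *Lhx2* and *Cacna1g* in *Nr2f1* mutants in 4, 3 and 2, and the other calls in all. In *Nr2f1* mutants DESeq2 called 6 of the 9 and the likelihood ratio test 7, while in *Sox2* mutants both called the same 5 as edgeR. *Rora*, which carries the Cre insertion, had 364, 341 and 298 CPM in *Sox2* controls and 80.9, 100.1 and 76.2 CPM in mutants. In the *Nr2f1* line, whose mutants carry the same insertion, it had 382, 344 and 413 CPM in controls and 363, 333 and 261 CPM in mutants, groups that overlapped (log2 −0.25, SE 0.11, edgeR FDR 0.204). Of 8 genes of neurons in general, *Syt1* and *Elavl4* fell in *Sox2* mutants, calls kept in 6 and 2 of the 6 fits that left out a library. For *Nr2f1* mutants edgeR called 0 of them, with 2 at an unadjusted p below 0.05, and DESeq2 and the likelihood ratio test each called 1. The pallial marker *Tbr1* had 11.8, 4.58 and 7.88 CPM in *Sox2* mutants 1, 3 and 4 (log2 1.07, SE 0.33, edgeR FDR 0.0475), and DESeq2 called it there. All 4 genes of the pallial list were above 0 in *Sox2* mutants (median 1.14). By edgeR 0 were called and 3 had an unadjusted p below 0.05. The list summed to 25.9, 18.2 and 10.8 CPM in *Sox2* controls and to 69.4, 18.3 and 43.1 CPM in mutants, with the highest value in mutant library 1. In *Nr2f1* mutants 1 of the 4 was above 0. The sexes of the pools differed, since *Xist*, expressed from the inactive X chromosome of females, had 579, 0.189 and 549 CPM in *Sox2* controls and 0.463, 307 and 293 CPM in mutants, and 484, 383 and 0.283 CPM in *Nr2f1* controls and 1150.1, 506 and 532 CPM in mutants. The 4 male-specific genes summed to 0 in *Nr2f1* mutant library A and to between 32.5 and 114 CPM in the other libraries, and neither they nor *Xist* were called by any of the 3 tests or had an unadjusted p below 0.05 in either line.

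The pathway was then followed beyond the 10 members with 64 further genes in 11 roles. In *Sox2* mutants 2 of the 57 tested rose and 5 fell, and in *Nr2f1* mutants 1 of the 58 tested rose and 3 fell. Over all tested genes 3.90% were called higher and 4.19% lower in *Sox2* mutants, and 1.22% and 1.32% in *Nr2f1* mutants. Groups did not overlap in the *Sox2* line for 11 genes with higher and 11 with lower mutant levels, and in the *Nr2f1* line for 5 and 9, beside 19.0% and 18.9% of all tested genes in the *Sox2* line and 14.4% and 14.3% in the *Nr2f1* line. Their median log2 fold changes were 0.05 and 0.004, and those of all tested genes 0.0005 and 0.01. *Dlk1*, *Tle1* and *Id2* fell in both lines, while for the difference between the mutants edgeR called 0 of 58 tested genes. There 12 had an unadjusted p below 0.05, and DESeq2 and the likelihood ratio test each called 2, *Maml3* and *Neurog2*.

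Among the other ligands, edgeR called *Dlk1*, which encodes a Delta-like protein without the domain that binds Notch receptors. It had 85.5, 99.98 and 100.6 CPM in *Sox2* controls and 33.5, 43.7 and 48.4 CPM in mutants (log2 −1.19, SE 0.13, edgeR FDR 0.000329). In the *Nr2f1* line it had 81.2, 96.2 and 65.4 CPM in controls and 24.0, 21.2 and 27.7 CPM in mutants (log2 −1.73, SE 0.14, edgeR FDR 0.000196). All mutant libraries lay far below the controls, and it was called in all 15 and all 14 alternative fits. The remaining ligand genes and the receptors *Notch3* and *Notch4* were not called by edgeR. DESeq2 and the likelihood ratio test called *Dner* in *Sox2* mutants, with 359, 384 and 312 CPM in controls and 268, 272 and 271 CPM in mutants (log2 −0.38, SE 0.08, edgeR FDR 0.0119), and *Notch4* in *Nr2f1* mutants, with 18.8, 22.2 and 17.7 CPM in controls and 25.6, 23.8 and 27.8 CPM in mutants (log2 0.39, SE 0.10, edgeR FDR 0.0451). *Notch3*, a receptor of mural cells and progenitors, had 187, 191 and 209 CPM in *Sox2* controls and 212, 229 and 232 CPM in mutants (log2 0.20, edgeR FDR 0.0798).

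Of the genes for receptor cleavage, *Aph1c*, a subunit of gamma-secretase, fell in *Sox2* mutants, from 7.94, 9.92 and 8.57 CPM to 4.92, 5.08 and 5.002 CPM (log2 −0.82, SE 0.13, edgeR FDR 0.00248). It is nearly identical to *Aph1b*, so its counts are uncertain, and it was not called without control library 2 (FDR 0.0161) or mutant library 4 (FDR 0.0149), nor in the fit over all 12 libraries (FDR 0.0249). In the *Nr2f1* line it had 3.83, 4.52 and 6.52 CPM in controls and 2.08, 3.53 and 1.57 CPM in mutants, groups that did not overlap (log2 −1.05, SE 0.30, edgeR FDR 0.0658), and DESeq2 called it. In the nuclear complex, *Maml3*, a Mastermind-like coactivator, rose in *Nr2f1* mutants (18.8, 19.7 and 21.8 CPM in controls, 30.7, 27.4 and 26.5 in mutants; log2 0.49, edgeR FDR 0.00956). The *Maml3* call was kept in 7 of 14 alternative fits, and was lost when any library other than mutant B was left out, with FDR between 0.0143 and 0.0506. In *Sox2* mutants *Maml3* had a log2 difference of −0.13 (FDR 0.475). Of the 4 ubiquitin ligases of ligands, the 5 enzymes of receptor glycosylation, the 9 negative regulators and the 5 other Hes and Hey genes (2 and 3 of them tested in the *Sox2* and *Nr2f1* lines) edgeR called none. In *Sox2* mutants 1, 2, 3 and 1 of them had an unadjusted p below 0.05 and DESeq2 called 0, 1, 1 and 0, where 35.0% of all tested genes had such a p, and in *Nr2f1* mutants the numbers were 0, 1, 3 and 1 and DESeq2 called 0, 0, 0 and 1.

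The Groucho-related corepressors, which Hes and Hey proteins recruit, moved in both directions in *Sox2* mutants. *Tle3* (57.2, 60.6 and 58.8 CPM in controls, 76.7, 74.4 and 78.5 in mutants; log2 0.38, edgeR FDR 0.00347) and *Tle4* (30.1, 31.6 and 28.4 CPM in controls, 41.9, 40.4 and 38.5 in mutants; log2 0.42, edgeR FDR 0.00501) rose. In the *Nr2f1* line *Tle3* had 43.1, 51.7 and 41.2 CPM in controls and 60.5, 53.05 and 65.4 CPM in mutants, a log2 difference of similar size without overlap (0.40, SE 0.10, edgeR FDR 0.0453) that DESeq2 and the likelihood ratio test called, and *Tle4* overlapped (0.24, edgeR FDR 0.193). *Tle1* fell in both lines, from 146, 143 and 138 to 99.6, 119 and 107 CPM in *Sox2* mutants (log2 −0.39, edgeR FDR 0.00601) and from 150, 153 and 149 to 105, 116 and 103 CPM in *Nr2f1* mutants (log2 −0.48, edgeR FDR 0.00112). The 3 calls in the *Sox2* line were each kept in 9 of 15 alternative fits. Without control library 1, control library 2, mutant library 1 or mutant library 4 none of the 3 was called, and *Tle4* was also lost without mutant library 3.

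Downstream, the proneural factor gene *Neurog2*, a gene that Hes proteins repress in cortical progenitors and that is transcribed in thalamic progenitors, fell in *Sox2* mutants. It had 12.5, 12.2 and 12.8 CPM in controls and 3.26, 2.88 and 3.67 CPM in mutants (log2 −1.93, SE 0.13, edgeR FDR 3.08e-05), and all 15 alternative fits called it. In the *Nr2f1* line it had 15.2, 14.6 and 11.7 CPM in controls and 7.53, 8.93 and 5.61 CPM in mutants, groups that did not overlap but missed the threshold (log2 −0.91, SE 0.17, edgeR FDR 0.0124). DESeq2 and the likelihood ratio test called it there, as did 6 of 14 alternative fits in all, among them the main fit at FDR below 0.05. The study, which states the same test and threshold, lists *Neurog2* among the genes that fell most in *Nr2f1* mutants. The difference between the mutants for *Neurog2* was −1.02 (SE 0.22, edgeR FDR 0.0226).

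Of the Id genes, whose products block basic helix-loop-helix factors, *Id2* fell in both lines. It had 52.9, 50.04 and 57.2 CPM in *Sox2* controls and 41.8, 40.0 and 39.8 CPM in mutants (log2 −0.40, edgeR FDR 0.00576), and 66.5, 75.1 and 70.5 CPM in *Nr2f1* controls and 41.5, 49.5 and 45.9 CPM in mutants (log2 −0.63, edgeR FDR 0.00156). In the *Sox2* line the call of *Id2* was kept in 8 of 15 alternative fits, and leaving out any library other than control 3 ended it (FDR 0.0145 to 0.0339). *Id1* had 28.5, 27.1 and 45.4 CPM in *Sox2* controls and 46.7, 52.7 and 70.0 CPM in mutants, and did not pass the test (log2 0.75, edgeR FDR 0.0300).

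**Figure D4:**
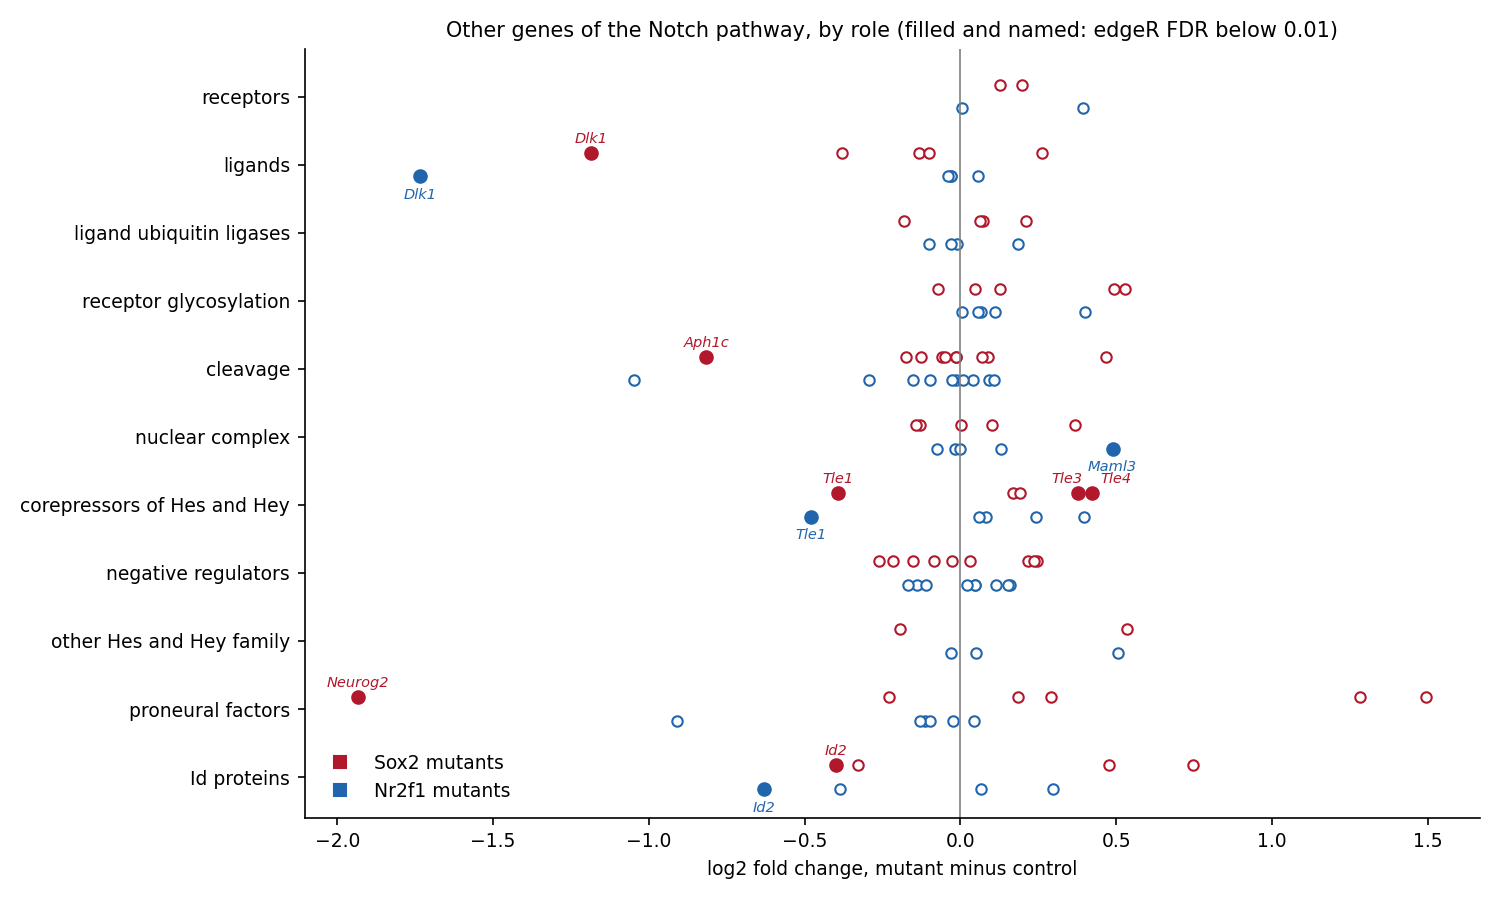
Log2 fold change, mutant minus control, of the tested genes among 64 further Notch pathway genes, grouped by role, in *Sox2* (red) and *Nr2f1* (blue) mutants; each point is a gene, filled and named when the edgeR FDR is below 0.01, and the grey line is 0. *Dlk1* (−1.19 and −1.73) and *Neurog2* in *Sox2* mutants (−1.93) lie farthest below 0 among the named genes.

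Genes with the pattern most like that of the called members were sought among 15396 genes tested in both lines, by the root mean square difference over 12 libraries of log2 CPM centred on the controls of the own line. For *Notch1*, whose own root mean square was 0.26, these were *Reep3* (0.06), *St5* (0.06) and *Adcy7* (0.07). For *Hey1*, with 0.39, they were *Cbs* (0.08), *Slc25a18* (0.09) and *Slc9a3r1* (0.09). In *Sox2* mutants *Reep3*, *Adcy7*, *Cbs*, *Slc25a18* and *Slc9a3r1* were called higher, and *St5* was not (log2 0.39, edgeR FDR 0.0168). Since the matching used these same libraries, such calls follow from how the genes were chosen and are no separate result.

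Several members share their locus with other annotated genes, and without strand in the counting their reads cannot be told apart. *Notch1* overlaps *0610009E02Rik* and the microRNA gene *Mir6996*, of which the latter is in the count table, *Notch2* overlaps *Gm40103*, *Hey1* overlaps *LOC115489673* and *Hey2* overlaps *Gm51763*.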

How the data were processed

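The authors aligned paired reads with STAR to the mouse RefSeq transcriptome and estimated expected counts per gene with RSEM, per the study's methods, and deposited these expected counts without normalization, in a table for each line. The submitters' processing notes name mm10 and no version of STAR. Columns were assigned to groups by their names, which do not say which labelled sample each is.

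Counts were rounded and tested with edgeR 4.0.16 in R 4.3.3 (filterByExpr with minimum count 10 and minimum total count 15, TMM, glmQLFit and glmQLFTest with default settings), with Benjamini-Hochberg FDR below 0.01 over all tested genes, in each line and, for the interaction, over 12 libraries. The study states the same test, normalization and threshold, and reports more called genes in each line than were called here. The cause of this difference was not tested, and a gene missing the threshold here can be one that the study called. An SE is the log2 fold change divided by the square root of F. The tests were checked on simulated counts, and the outcome of that check is not reported here. Replicate libraries differed by more than sampling noise (chi-square per degree of freedom 10.4 to 37.9). CPM per kb uses the mean length of GENCODE M21 transcripts matched to RefSeq.

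The members, the 64 further pathway genes and the 15 marker lists (thalamic glutamatergic, general, GABAergic and pallial neurons, radial glia and astrocytes, dividing cells, oligodendrocyte lineage, microglia, endothelial cells, pericytes, meningeal fibroblasts, choroid plexus, habenula, male-specific and female-specific genes) were chosen with earlier results of these data known, and no test of a whole list was made. Named genes were the members, the deleted genes, called pathway genes, the most abundant and called markers, and for each called member the 3 genes with the most similar pattern. *Notch3*, *Notch4*, *Dner*, *Id1* and *Tbr1* were named after their values were seen. Results of some listed genes are not reported here. Alternatives were upper quartile normalization, DESeq2 1.42.0, no filter, legacy=FALSE, the likelihood ratio test, a fit over all libraries, FDR below 0.05, male-specific genes as covariate, each library left out, and the replicate number as a block. Counts of alternative fits include FDR below 0.05, which is the main fit at a looser threshold. A gene with a main FDR below 0.05 is called there in advance.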

Additional observations from a re-analysis of the deposited data

Results flagged for a closer look

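None of the 10 Notch pathway genes or the 58 further pathway genes that were tested was called by the edgeR test of the interaction at FDR below 0.01. Of the deleted and marker genes reported beside them, 8 were. On the log2 scale, with the change in the *Nr2f1* line subtracted from that in the *Sox2* line, the differences were −0.84 for *Sox2* (FDR 0.00603) and 1.19 for *Nr2f1* (FDR 0.00742), each of which is deleted in a single line. Both calls were kept in 9 of 19 alternative fits and in 3 of the 12 that left out a library, with FDR up to 0.0524 and 0.0804, while the 6 markers below were also called by DESeq2 and by the likelihood ratio test and their differences with libraries left out were not tabulated. Among neuronal markers the differences were −0.91 for *Slc17a6* (FDR 0.00467), −1.70 for *Rora* (FDR 0.000118), −1.93 for *Prox1* (FDR 9.85e-05) and −0.52 for *Elavl4* (FDR 0.00851). Among microglial markers they were 0.69 for *Cx3cr1* (FDR 0.00402) and 1.48 for *P2ry12* (FDR 0.000419). With groups of 3 libraries, no single library was tested for standing apart.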

How the results depend on the processing

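The count of called members in *Sox2* mutants was 2, and it became 6 under DESeq2, 5 under the likelihood ratio test, 4 in a fit over all 12 libraries, 6 at FDR below 0.05, and 0 to 3 when each library was left out. The 7 further pathway genes called there became 13 under DESeq2, 12 under the likelihood ratio test, 14 at FDR below 0.05, 4 with the male-specific genes as covariate, and 2 to 14 when each library was left out. In *Nr2f1* mutants the members numbered 0, and 0 to 2 when each library was left out, while the 4 further pathway genes became 11 under DESeq2, 9 under the likelihood ratio test, 9 at FDR below 0.05, 1 with the covariate, and 3 to 8 when each library was left out. The difference between the mutants had 0 members, 1 with DESeq2, and 0 to 1 when each library was left out. Fits that leave out a library have fewer samples, but without *Sox2* control library 3 more genes were called in all, 2161 against 1261. The cause of the shifts was not tested.

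With the replicate number as a block in the *Sox2* line, 5 members and 11 further pathway genes were called. The columns share the numbers 1 and 3, with correlations of deviations of 0.22 and 0.21 over 2 pairs, so the numbers do not establish a pairing. No paired analysis was possible because the *Nr2f1* columns share only B, for that line and for the difference between the mutants.

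Among single genes, 1175 values under alternatives kept their direction and their side of the threshold, 146 lost a call, 62 gained it, and 13 changed direction, none of them called. When each library was left out, log2 values ranged from −0.21 to 0.10 for *Hes1* in *Sox2* mutants, and in *Nr2f1* mutants from −0.020 to 0.17 for *Notch1*, −0.065 to 0.067 for *Dll1*, −0.027 to 0.064 for *Hes5* and −0.034 to 0.13 for *Hes6*. The *Notch2* difference between the mutants ranged from −0.17 to 0.23. *Maml3* in *Sox2* mutants was 0.037 with the block. Log2 ranges over the 15 alternatives were 0.41 to 0.57 for *Notch1*, 0.59 to 0.86 for *Hey1* and 0.49 to 0.81 for *Hes5* in *Sox2* mutants. No alternative scaling moved the median of all genes by more than 0.1. Depth and 3 pools a group left a median SE of 0.11 and 0.09, which limits what can be called.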
